A study of Mus musculus with 2 samples.

Results

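The enzymes that change foreign chemicals in the nose were followed through the cell types of the mouse olfactory epithelium, the sheet of nasal tissue that detects odorants. They were chosen by a pattern of gene symbols, with earlier results of these data known. Taken in were the cytochrome P450 families Cyp1 to Cyp4, the soluble glutathione transferases (Gst) and the UDP-glucuronosyltransferases (Ugt1 and Ugt2). With them came the Sult1 sulfotransferases, the flavin monooxygenases Fmo1 to Fmo5, the carbonyl reductases Cbr1 to Cbr3 and the aldehyde dehydrogenases Aldh1 to Aldh3. The pattern matched 151 of 32534 listed features: 82 P450s, 21 glutathione transferases, 19 UDP-glucuronosyltransferases, 6 sulfotransferases, 5 flavin monooxygenases, 3 carbonyl reductases and 15 aldehyde dehydrogenases. Read literally it also takes in Aldh16a1, Aldh18a1 and the antisense RNA Cyp4x1os.

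Single-cell RNA-seq with 10x Genomics 3′ v3.1 chemistry, which counts transcripts by unique molecular identifiers (UMIs), had been done on 2 libraries of dissociated olfactory epithelium, 1 per group. The transgenic library is labelled as female, 9 weeks of age, with the genotype Tg(Or8a1-OR1A1,-MAPT/mCherry)D736Feins/+, a transgene for the human odorant receptor OR1A1, and its strain name is that of the same transgene with the ending D736Feins/J. The other is labelled as female, 8 weeks of age, WT, a cross of 10G4-V2.2-#7/Jax with Bl6/129SF1/J. The labels do not say whether 10G4-V2.2-#7 carries a transgene of its own, and wild type below means the library so labelled. The labels do not say how many animals went into a library. Genotype, strain, age and library cannot be told apart, and with 1 library per group there is no replicate check: intervals cover counting error only and no test between groups was made. The design compared odorant receptor expression, and the enzymes are described here for which cells hold them and how much of their RNA lies outside cells. UMIs count transcript ends, so levels of different genes are set side by side without a correction for length.

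Foreign chemicals are handled in steps. P450s and flavin monooxygenases insert oxygen, carbonyl reductases and aldehyde dehydrogenases act on the aldehydes and ketones that result, and transferases then attach glutathione, glucuronic acid or sulfate, which makes the products soluble and open to export. The nose is known for a high content of such enzymes, in particular the P450s Cyp2a5 and Cyp2g1, and sustentacular cells, the supporting cells that surround the olfactory sensory neurons (OSNs), and Bowman's glands are their classical sites.

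The libraries held 70572741 and 55701219 UMIs (transgenic first, here and throughout), and 1745 and 1117 barcodes were kept as cells, with medians of 14440 and 12983 UMIs. A kept barcode had at least 5827 or 5318 UMIs and at most 10% mitochondrial UMIs, and 1 kept barcode sequence occurred in both libraries. Cells were clustered without the enzymes and named from 163 markers, so the classes below were not drawn by the enzymes themselves. Sustentacular-like cells (88 and 22) carried Sec14l3 at 4710 and 4000 counts per 1000000 UMIs (CPM), Muc2 at 987 and 978 and Ermn at 410 and 455. They also held the OSN marker Omp at 658 and 1055 CPM, against 5016 and 5090 in mature OSN-like cells, and in the transgenic library the respiratory secretory gene Bpifa1 at 4517 CPM, against 39.8 in the wild type; the part of such RNA in the enzyme values was not tested. Clusters whose leading genes include markers of another class stayed unnamed and are called by their leading genes. The cluster led by Dcpp1 and Dcpp3 (38 and 30 cells) held the sustentacular markers Krt18 at 4069 and 3971 CPM and Ermn at 568 and 603, but Sec14l3 at only 164 and 322. Its leading genes Dcpp1 and Dcpp3 are serous nasal gland markers in the list used, so it is not taken here as sustentacular or as gland. The cluster led by Reg3g and Bpifa1 (30 and 39 cells) held respiratory secretory genes.

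Because Cyp2a5 and Cyp1a2 were abundant both in sustentacular-like cells and in the Dcpp1-led cluster, while Cbr2 and Gstm1 were lower in the latter, the 250 bases before the annotated starts of these 4 genes are shown, from RefSeq on GRCm38.p6, 5′ to 3′ on the gene's strand. They come from chr7:26835089-26835338 (+ strand, Cyp2a5), chr9:57683656-57683905 (- strand, Cyp1a2), chr11:120732022-120732271 (- strand, Cbr2) and chr3:108017974-108018223 (- strand, the upstream start of Gstm1). Capitals mark the letters TATAAA, a core promoter element, and GCGTG, the core site of the Ahr and Arnt receptor pair, on either strand.
Cyp2a5: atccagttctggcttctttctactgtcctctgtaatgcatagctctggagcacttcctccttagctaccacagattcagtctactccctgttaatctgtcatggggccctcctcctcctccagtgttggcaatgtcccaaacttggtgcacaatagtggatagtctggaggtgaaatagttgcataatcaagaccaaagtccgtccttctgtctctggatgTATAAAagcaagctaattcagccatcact
Cyp1a2: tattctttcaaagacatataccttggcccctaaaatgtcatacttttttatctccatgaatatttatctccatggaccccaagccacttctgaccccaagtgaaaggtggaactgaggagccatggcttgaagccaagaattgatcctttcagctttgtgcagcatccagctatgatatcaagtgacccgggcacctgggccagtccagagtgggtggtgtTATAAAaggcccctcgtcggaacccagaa
Cbr2: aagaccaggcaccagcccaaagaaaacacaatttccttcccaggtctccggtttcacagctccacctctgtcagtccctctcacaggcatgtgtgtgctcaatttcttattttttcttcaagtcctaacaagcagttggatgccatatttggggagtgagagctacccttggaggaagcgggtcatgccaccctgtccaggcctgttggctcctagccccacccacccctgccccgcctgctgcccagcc
Gstm1: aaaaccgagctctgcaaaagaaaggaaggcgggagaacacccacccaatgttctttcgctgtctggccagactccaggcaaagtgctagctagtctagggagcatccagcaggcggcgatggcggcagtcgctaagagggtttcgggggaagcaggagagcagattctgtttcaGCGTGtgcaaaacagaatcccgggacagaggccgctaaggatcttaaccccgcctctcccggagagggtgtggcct

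TATAAA stood in the Cyp2a5 and Cyp1a2 stretches and not in the other stretches shown, and GCGTG stood in the Gstm1 stretch. Gstm1 has a second annotated start, whose window at chr3:108017769-108018068 (- strand) holds 1 TATAAA and 1 GCGTG. In windows of 250 bases before to 50 bases after a start, GCGTG was found on either strand in 27.3% of 22 promoters of 18 members highest in sustentacular-like cells, in 21.8% of 142 promoters of 125 members, and in 32.4% of 32851 promoters of all genes. TGACNNNGC, the core of the antioxidant response element, was found in 4.55%, 7.04% and 12.4%, its single match among the sustentacular members being in Cyp2j6. TATAAA, which was added after the sequences had been seen, was found in 31.8%, 27.5% and 13.6%. These are matches of letters in a window, and no 2 of the motifs overlap in the stretches shown. Cyp2g1 and Aldh2 have no entry in the RefSeq table of promoters.

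Few of the enzymes made up most of the enzyme RNA. Of the 151 members, 34 had no UMI in any barcode of either library, and 100 and 98 had at least 1 in kept cells. The 15 members with the highest mean level gave 90.7% and 85.8% of all enzyme UMIs in kept cells. P450s alone gave 43.8% and 34.7%, glutathione transferases 23.5% in each library, carbonyl reductases 12.4% and 13.5%, sulfotransferases 9.58% and 12.7%, aldehyde dehydrogenases 7.22% and 10.3%, flavin monooxygenases 3.07% and 4.95%, and UDP-glucuronosyltransferases 0.383% and 0.366%.

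Enzyme RNA was concentrated in the non-neuronal epithelium. All members together made up 0.859% (95% exact binomial interval 0.855 to 0.862%) of the UMIs of kept transgenic cells and 0.486% (0.483 to 0.489%) of wild-type ones. In sustentacular-like cells they made up 4.07% (4.05 to 4.09%) and 3.22% (3.19 to 3.26%), so that 5.04% and 1.97% of the cells gave 58.1% and 33.1% of the enzyme UMIs. The Dcpp1-led cluster followed with 3.04% and 1.72%. The Reg3g-led cluster had 1.36% and 1.45%, and horizontal basal cell-like cells, the resting stem cells of the epithelium, had 1.36% and 1.21%.

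The other classes were lower by summed UMIs. Bowman's gland-like cells (20 and 8 cells) had 0.439% and 0.494%, but admitting cells of up to 20% mitochondrial UMIs gave 1.10% and 2.05%. In that new clustering, which had no separate Reg3g-led cluster, the class named horizontal basal cell-like (207 and 117 cells) had 1.30% in each library. Its cells are not only those of the class above. At the 10% limit serous nasal gland-like cells (11 and 17) had 0.375% and 0.183%. As a mean over cells, however, they had 1.26% and 0.326%, against 1.37% and 1.26% in horizontal basal cell-like cells. Ionocyte-type microvillar-like cells (45 and 12) had 0.419% and 0.284%. Fibroblast-like cells had 0.364% and 0.300%, endothelial-like cells 0.329% and 0.219%, and tuft-type microvillar-like cells 0.275% and 0.311%. In the neuronal lineage the share was 0.0968% and 0.0874% in globose basal cell-like, 0.0672% and 0.0434% in neuronal precursor-like, 0.141% and 0.115% in immature OSN-like and 0.156% and 0.158% in mature OSN-like cells. The order of the leading 2 classes and of the neuronal classes below them was the same in both libraries.

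**Figure D1:**
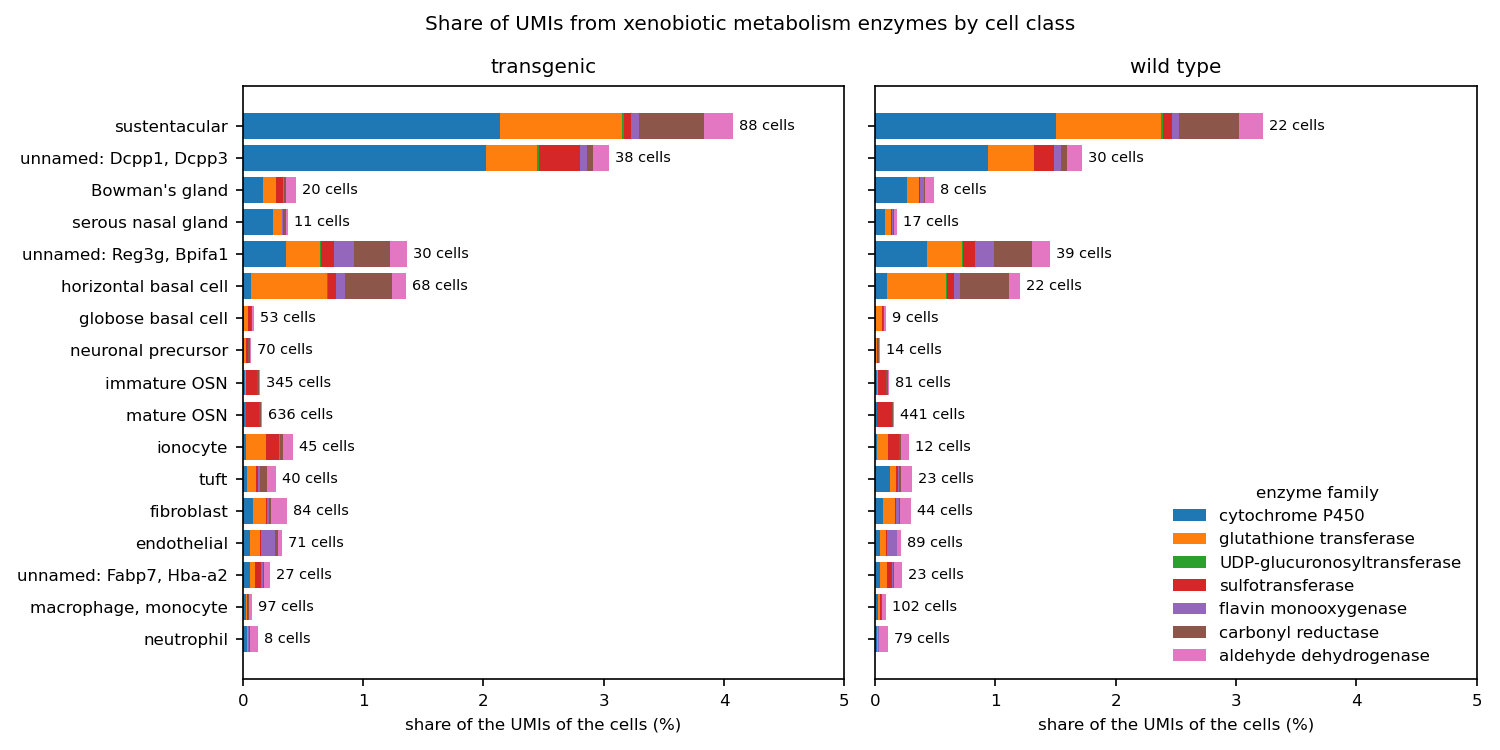
Share of the UMIs of each cell class (x axis, percent) that came from the 7 enzyme families (colours), in the transgenic and the wild-type library, with the number of cells beside each bar. Sustentacular-like cells reach 4.07% and 3.22%, and P450s are the widest segment there and in the Dcpp1-led cluster, while the bar of mature OSN-like cells (0.156% and 0.158%) is mostly sulfotransferase.

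Of the 151 members, 52 were measured, meaning at least 50 UMIs in kept cells and 20 CPM in 1 named class of 10 or more cells, in each library. For 41 of them the highest named class was the same in both libraries. This class was sustentacular-like for 21 members, or 40.4% of those measured, against 3.37% of 11336 features of the whole data held to the same rule. It was fibroblast-like for 5 members (background 5.11%), horizontal basal cell-like for 5 (3.29%), endothelial-like for 4 (6.23%), ionocyte-type microvillar-like for 3 (3.19%), mature OSN-like for 2 (8.55%) and macrophage or monocyte-like for 1 (4.85%). No member was highest in immature OSN-like (5.46%), immediate neuronal precursor-like (5.72%), tuft-type microvillar-like (5.29%) or serous nasal gland-like cells (0.318%) in both libraries. By family, sustentacular-like cells were highest for 10 of 16 measured P450s, 5 of 13 glutathione transferases, both UDP-glucuronosyltransferases, 2 of 9 aldehyde dehydrogenases, 1 of 5 sulfotransferases, 1 of 3 carbonyl reductases and 0 of 4 flavin monooxygenases.

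The unnamed clusters and the classes with 5 to 9 cells in a library, such as the wild-type Bowman's gland-like cells, cannot be highest under that rule. In an alternative chosen after the data had been seen, which counts them too, 56 members were measured. Sustentacular-like cells were then highest in both libraries for 17 (2.04% of 11757 features). The Dcpp1-led cluster was highest for 5 (2.39%), namely Sult1c1, Gstm5, Sult1e1, Gsta3 and Gstt3. The Reg3g-led cluster was highest for 5 (1.10%), namely Cyp2f2, Fmo2, Aldh3a1, Fmo1 and Cyp4a12b. Fibroblast-like cells were highest for 4 (3.98%), endothelial-like for 3 (5.01%), and horizontal basal cell-like (2.02%) and mature OSN-like (7.09%) for 2 each. Neutrophil-like cells were highest for Cyp4f18 and Fmo5 (1.85%) and the cluster led by Fabp7 and Hba-a2 for Aldh1a1 and Cyp2j9 (0.987%). Ionocyte-type microvillar-like (2.19%) and macrophage or monocyte-like cells (3.18%) kept 1 each. No member was highest in both libraries in Bowman's gland-like (0.936%), serous nasal gland-like (0.247%), T or NK cell-like (2.3%), globose basal cell-like (3.27%), immature OSN-like (4.64%), immediate neuronal precursor-like (4.41%), tuft-type microvillar-like (3.9%) or myeloid progenitor-like cells (1.36%).

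**Figure D2:**
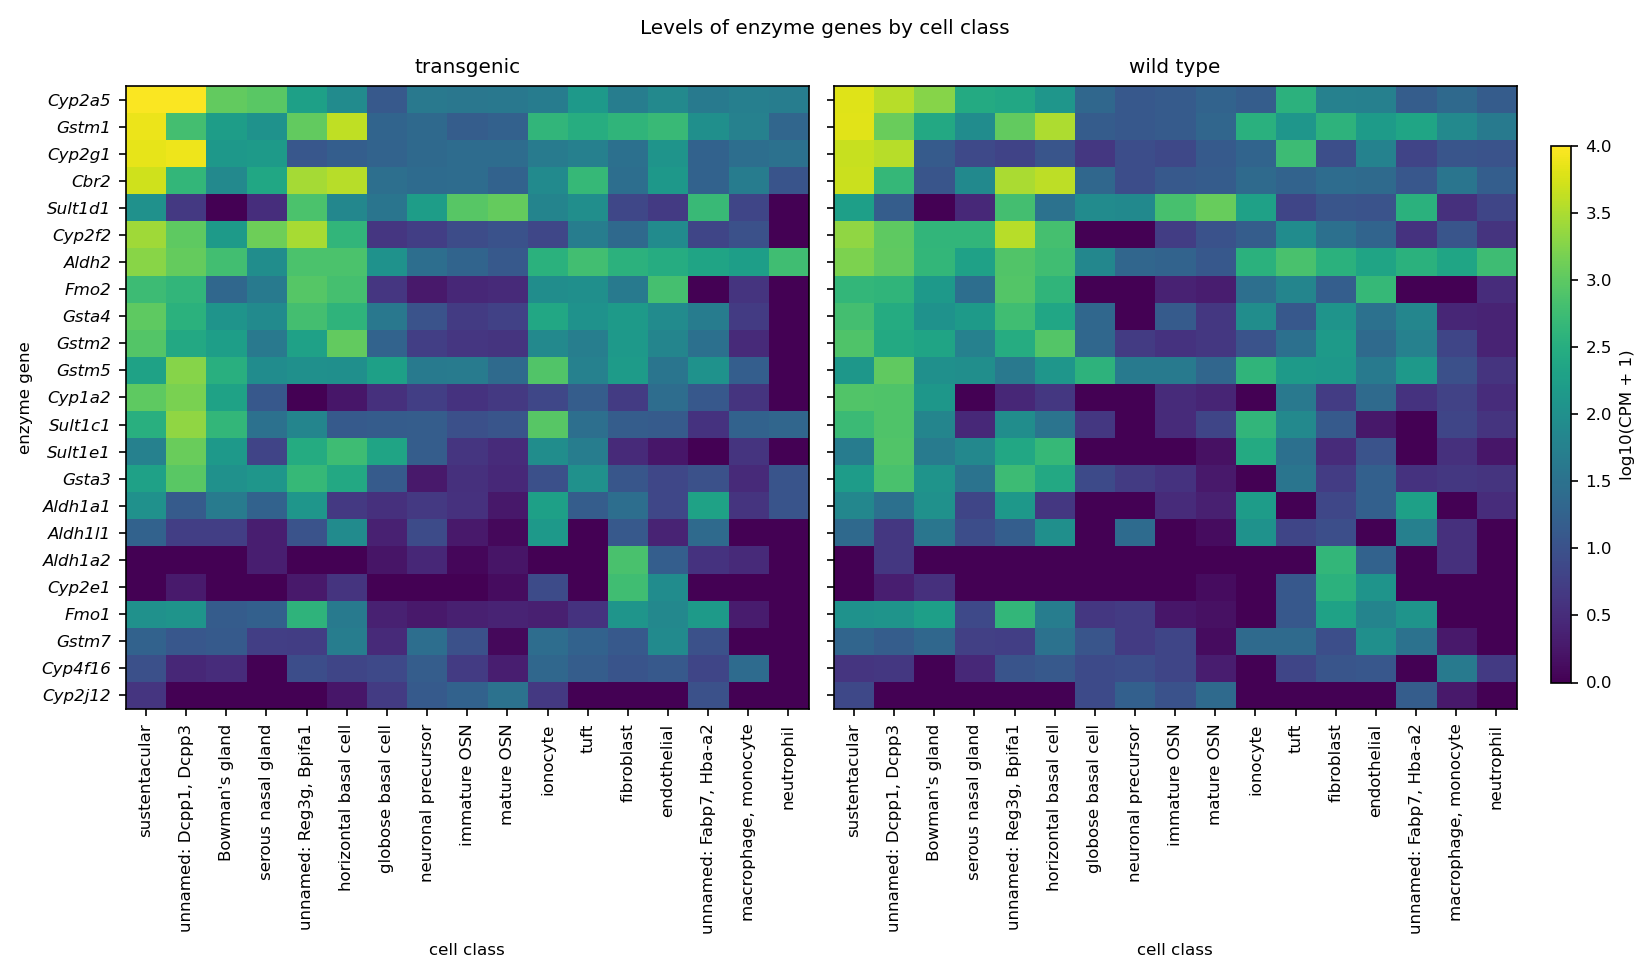
Level of each enzyme gene (rows: the 15 highest members and up to 3 members for each class that is their highest in both libraries) in each cell class (columns), as log10(CPM + 1), for the transgenic and the wild-type library. The brightest squares are Cyp2a5, Gstm1, Cyp2g1 and Cbr2 in sustentacular-like cells and, in the transgenic library, Cyp2a5 and Cyp2g1 in the Dcpp1-led cluster, Sult1d1 stands out in OSN-like cells, and Aldh1a2 and Cyp2e1 in fibroblast-like cells.

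Among the P450s, Cyp2a5, which hydroxylates coumarin and nicotine, had the highest level over kept cells as a mean of the libraries, at 1613 and 575 CPM. In the wild-type library alone Gstm1 (612 CPM) and Cbr2 (579 CPM) stood above it. Cyp2a5 stood at 9631 CPM (exact Poisson interval 9533 to 9730) in transgenic and 6434 CPM (6274 to 6597) in wild-type sustentacular-like cells, and at 39.1 and 17.7 CPM in mature OSN-like cells, a difference of 247-fold and 363-fold. Cyp2g1, a P450 known mainly from the olfactory mucosa, followed at 7045 and 4595 CPM in sustentacular-like cells. In horizontal basal cell-like cells Cyp2g1 was at 14.7 and 10.3 CPM, that is 478-fold (309 to 782) and 448-fold (206 to 1221) lower. Both genes were also high in the Dcpp1-led cluster, Cyp2a5 at 9571 and 3668 CPM and Cyp2g1 at 7930 and 3745 CPM, so the libraries differed there more than in the sustentacular-like cells. In Bowman's gland-like cells Cyp2a5 kept a level of 1109 and 1894 CPM while Cyp2g1 was at 134 and 13.1 CPM.

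Further P450s differed in the classes that held them beside the sustentacular-like cells. Cyp1a2, known from the liver for its action on caffeine and arylamines, was at 1001 and 818 CPM in sustentacular-like cells, 1549 and 791 CPM in the Dcpp1-led cluster, and 202 and 128 CPM in Bowman's gland-like cells. Cyp2f2, which activates naphthalene, was at 2683 and 2143 CPM in sustentacular-like cells but at 2980 and 3687 CPM in the Reg3g-led cluster. The Dcpp1-led cluster held Cyp2f2 at 1008 and 1000 CPM, and serous nasal gland-like cells held it at 1300 and 430 CPM. In horizontal basal cell-like cells Cyp2f2 was at 434 and 655 CPM. Cyp2j6 was at 294 and 309 CPM in sustentacular-like cells and 62.3 and 44.0 CPM in the Dcpp1-led cluster. Cyp4b1 was at 280 and 282 CPM in sustentacular-like cells and 55.1 and 71.6 CPM in the Reg3g-led cluster. Cyp4b1 had no UMI in the 38 transgenic cells of the Dcpp1-led cluster, at least 102-fold lower against a floor of 3 counts over the cluster, and 10 UMIs, all in 1 cell, in the 30 wild-type ones.

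Away from the epithelial surface, Cyp2e1, which oxidises ethanol and other small solvents, was a fibroblast P450. Its levels were 583 and 377 CPM in fibroblast-like cells and 86.3 and 116 CPM in endothelial-like cells, with no UMI in sustentacular-like cells of either library, which puts fibroblast-like cells at least 746-fold and 120-fold higher (floor of 3 counts over the class). Cyp3a13 was highest in horizontal basal cell-like cells, at 68.6 and 90.6 CPM. Cyp2j12 was the P450 with its highest class in mature OSN-like cells, at 30.8 and 22.7 CPM in mature OSN-like cells. Cyp4f16 was highest in macrophage or monocyte-like cells, at 23.7 and 43.2 CPM.

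The carbonyl reductase Cbr2 and the glutathione transferase Gstm1 formed a different pattern from the P450s, with high levels in sustentacular-like and horizontal basal cell-like cells alike. Cbr2, which reduces small carbonyl compounds, was at 5204 and 4818 CPM in sustentacular-like, 3740 and 4019 CPM in horizontal basal cell-like and 2895 and 3096 CPM in Reg3g-led cells. Gstm1 was at 7621 and 6722 CPM in sustentacular-like, 4192 and 3203 CPM in horizontal basal cell-like and 1100 and 1102 CPM in Reg3g-led cells. All horizontal basal cell-like cells of both libraries (68 and 22) had a UMI of Gstm1 and of Cbr2. In the Dcpp1-led cluster both were lower than in sustentacular-like cells, Cbr2 at 441 and 462 CPM (11.8-fold and 10.4-fold lower) and Gstm1 at 630 and 1211 CPM (12.1-fold and 5.55-fold lower).

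Other glutathione transferases had several leading classes. Gsta4, which acts on the lipid aldehyde 4-hydroxynonenal, was highest in sustentacular-like cells at 1029 and 645 CPM. Gstm2 was highest in horizontal basal cell-like cells at 1107 and 845 CPM, with 842 and 778 CPM in sustentacular-like cells. Gstm5 reached 1894 and 1044 CPM in the Dcpp1-led cluster and 827 and 408 CPM in ionocyte-type microvillar-like cells, against 197 and 131 CPM in sustentacular-like cells. Gsta3 was at 931 and 707 CPM in the Dcpp1-led cluster and 195 and 159 CPM in sustentacular-like cells.

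Sulfotransferases led in neurons, epithelium or vessels, depending on the member. Sult1d1, a sulfotransferase of catecholamines and other phenols, was the enzyme of the OSNs. It was at 1129 CPM (1106 to 1151) and 1168 CPM (1139 to 1196) in mature OSN-like cells, 899 and 681 CPM in immature OSN-like cells, and 168 and 78.8 CPM in neuronal precursor-like cells. A UMI of Sult1d1 was present in 98.1% and 99.1% of mature OSN-like cells, and in 94.8% and 97.5% after thinning to 5000 UMIs. The Reg3g-led cluster held Sult1d1 as well, at 735 and 634 CPM. In sustentacular-like cells Sult1d1 was at 106 and 183 CPM, that is 0.0936 and 0.157 of its mature OSN-like level, where Omp stood at 0.131 and 0.207 of its own, and the part of OSN RNA in this value was not tested.

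The other measured sulfotransferases had their highest levels outside the neurons. Sult1a1 was highest in endothelial-like cells, at 77.1 and 44.2 CPM. Sult1e1, which sulfates oestrogens, was at 1237 and 815 CPM in the Dcpp1-led cluster and 579 and 481 CPM in horizontal basal cell-like cells, against 57.1 and 46.1 CPM in sustentacular-like cells. Sult1c1 was at 2146 and 790 CPM in the Dcpp1-led cluster, 915 and 432 CPM in ionocyte-type microvillar-like cells and 337 and 530 CPM in sustentacular-like cells. UDP-glucuronosyltransferases were sparse, with Ugt2a1, the olfactory form, at 151 and 92.2 CPM and Ugt2a2 at 20.6 and 39.8 CPM in sustentacular-like cells. Ugt2a1 and Ugt2a2 share all 30-base windows of the last 500 bases of their transcripts in GENCODE M21, so their 3′ counts are uncertain.

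Aldehyde dehydrogenases had leading classes in the epithelium, the stroma and the microvillar cells. Aldh2, the mitochondrial acetaldehyde dehydrogenase, was at 1973 and 1614 CPM in sustentacular-like cells and 1143 and 1073 CPM in the Dcpp1-led cluster. Horizontal basal cell-like cells held Aldh2 at 731 and 585 CPM, and neutrophil-like cells (8 and 79 cells) at 583 and 577 CPM. Aldh1a2, which makes retinoic acid, was at 711 and 451 CPM in fibroblast-like cells and at 0 UMIs in sustentacular-like cells, at least 909-fold and 144-fold lower against the same floor. Aldh1a1, another retinaldehyde dehydrogenase, was highest among named classes in ionocyte-type microvillar-like cells, at 190 and 159 CPM. The cluster led by Fabp7 and Hba-a2 held Aldh1a1 at 203 and 185 CPM, and sustentacular-like cells at 103 and 71.2 CPM. Aldh1l1, a folate enzyme, was at 143 and 108 CPM in ionocyte-type microvillar-like cells.

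Fmo2, a lung-type flavin monooxygenase, was at 664 and 479 CPM in endothelial-like cells and 869 and 845 CPM in the Reg3g-led cluster. It was nearly as high in other epithelial cells, at 652 and 419 CPM in horizontal basal cell-like and 547 and 438 CPM in sustentacular-like cells. The Dcpp1-led cluster held it at 430 and 417 CPM. Fmo1 was highest among named classes in fibroblast-like cells, at 120 and 201 CPM, with 103 and 108 CPM in sustentacular-like cells. The Reg3g-led cluster stood above both, at 392 and 447 CPM. No flavin monooxygenase had sustentacular-like cells as its highest class in both libraries.

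The sustentacular-like cells and the Dcpp1-led cluster, which share markers such as Ermn and Krt18, were compared directly for the 28 members with 50 UMIs in either of the 2 in each library. Past 2-fold in both libraries, 3 members were higher in the Dcpp1-led cluster (7.02% of 4088 features were), namely Sult1e1, Gstm5 and Gsta3, with log2 ratios of 4.43 and 4.11, 3.26 and 2.98, and 2.26 and 2.14. Lower past 2-fold in both libraries were 14 members (13.4% of features), among them Gstm1, Cbr2, Cyp4b1, Gstm2 and Aldh1a7. Cyp2a5 had log2 ratios of -0.01 (-0.04 to 0.02) and -0.81 (-0.87 to -0.75), and Fmo1 of 0.18 (-0.13 to 0.46) and 0.09 (-0.33 to 0.50).

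Within the sustentacular-like cells, the enzymes were not evenly spread. The summed enzyme share per cell ran from 1.63% at the 10th to 7.00% at the 90th percentile in the transgenic and from 2.03% to 4.28% in the wild-type library. Between the same percentiles Cbr2 ran from 2237 to 9366 CPM and from 2559 to 7179 CPM, and Gstm1, over a wider span, from 624 to 19503 CPM and from 478 to 13990 CPM. Across cells, described without a test, Cyp2a5 and Cyp2g1 had a Spearman rho of 0.794 (88 cells) and 0.791 (22 cells). Cyp2a5 and Gstm1 had 0.048 and -0.254, and Sult1c1 and Gstm1 had -0.496 and -0.279. All cells of a library share its free RNA and preparation.

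Sult1c1 and Gstm5 were unevenly held among sustentacular-like cells. The median sustentacular-like cell had 17.9 and 0 CPM of Sult1c1, and the leading cell gave 21.3% and 76.9% of its UMIs in the class. For Gstm5 the medians were 0 and 6.72 CPM, and the leading cell gave 28.1% and 63.2% of the UMIs. In the Dcpp1-led cluster, by contrast, Gstm5 had a median of 1988 and 1096 CPM per cell with no cell at 0.

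**Figure D3:**
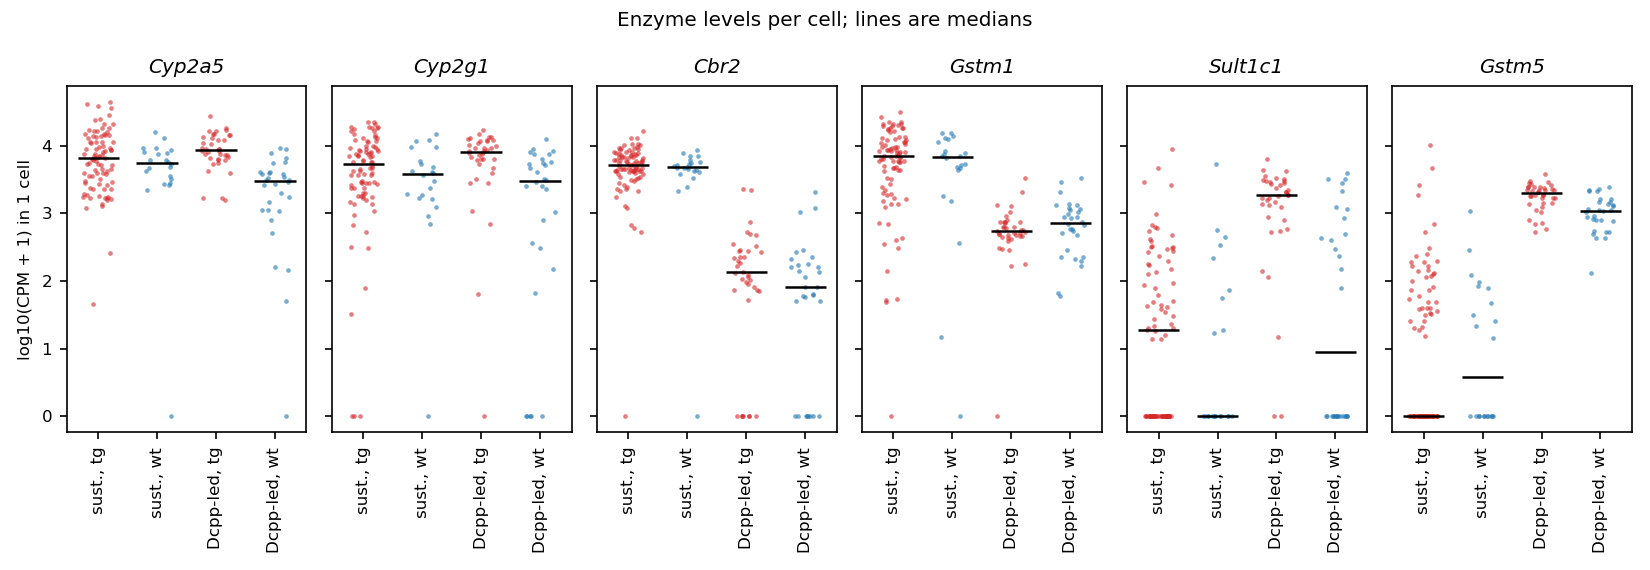
Level of 6 enzymes in single cells (points, log10(CPM + 1)) of the sustentacular-like class and the Dcpp1-led cluster in the transgenic (red) and wild-type (blue) libraries, with medians as lines. Cyp2a5 and Cyp2g1 overlap between the classes, Cbr2 and Gstm1 have lower medians in the Dcpp1-led cluster, and Gstm5 has medians of 1988 and 1096 CPM there against 0 and 6.72 CPM in sustentacular-like cells.

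Members that lie side by side in the genome did not all share their cells. Joining members within 500 kb of each other in the RefSeq order on GRCm38, a run of 13 members on chromosome 7 had 4 measured ones, Cyp2b10, Cyp2g1, Cyp2a5 and Cyp2f2, all highest in sustentacular-like cells among named classes. A run of 7 Gstm genes on chromosome 3 had 5 measured members with 4 highest classes: sustentacular-like for Gstm1 and Gstm4, horizontal basal cell-like for Gstm2, ionocyte-type for Gstm5 and endothelial-like for Gstm7. A run of 13 Ugt2 and Sult1 genes on chromosome 5 had 5 measured members in 3 classes, with Sult1d1 in mature OSN-like cells beside Ugt2a1, Ugt2a2 and Sult1b1 in sustentacular-like cells. In a run of 15 members made up of Cyp2c genes and Aldh18a1, and in runs of 8 Cyp3a and 9 Ugt1a members, 0 were measured.

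Similar sequences limit some of these assignments. In the last 500 bases of their GENCODE M21 transcripts, 42.7% of 30-base windows of Cyp2a5 recur in another gene, namely Cyp2a4 or Cyp2a21-ps, and 31.7% of those of Gstm1 and 27.7% of those of Cbr2 do. For Gstp1 the share is 84.3% and for Gsta2 76.4%, so the values of these genes are uncertain. A share of windows is not the share of reads affected, and reads were not checked.

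The genes that serve the enzymes were taken from lists written with earlier results of these data known. Of 6 genes for electron supply and haem, all were measured and 4 were highest in sustentacular-like cells in both libraries: Por, the reductase that feeds P450s, at 1453 and 1187 CPM, Cyb5a, Cyb5r3 and Alas1. Of 8 cofactor genes, 3 were sustentacular (Ugdh, Ugp2 and Papss2). Of 12 other conjugating enzymes 8 were measured and 1, Mgst1, was sustentacular. Of 21 other oxidising and hydrolysing enzymes 12 were measured and 4 were sustentacular: Ephx1, Aox2, Akr1a1 and Pon1. Of 7 exporters 6 were measured, with Abcc1 and Abcc3 in sustentacular-like and Abcb1a and Abcg2 in endothelial-like cells. Of 9 receptors and sensors 6 were measured and 2 kept 1 class, Ahr in macrophage or monocyte-like and Nfe2l2 in mature OSN-like cells. These genes were part of the clustering, Aox2 being among the leading genes of the sustentacular-like cluster, so their classes are a description; the share of all features highest in sustentacular-like cells is the 3.37% given above.

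Between the libraries, few enzymes differed past 2-fold in mature OSN-like or sustentacular-like cells. In mature OSN-like cells (636 and 441) 9 members reached 20 CPM and 50 UMIs in one library or the other. Past 2-fold, 1 was higher in the transgenic library (1.59% of 7035 features) and 0 were lower (3.41%), and the median log2 ratio was 0.00 against -0.05 for all features. The member past 2-fold was Cyp2a5, at 39.1 and 17.7 CPM, with a log2 ratio of 1.13 (0.82 to 1.48). Free RNA, taken from barcodes with 1 to 99 UMIs, held Cyp2a5 at 2113 and 1368 per 1000000 non-mitochondrial UMIs, also higher in the transgenic library, and its part in the OSN value was not tested. Sult1d1 had a log2 ratio of -0.05 (-0.09 to -0.00).

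In sustentacular-like cells 36 members were measured. Past 2-fold, 0 were higher in the transgenic library (1.94% of 7223 features) and 1 was lower (1.02%), with a median log2 ratio of 0.20 against -0.02 for all features. The lower member was Cyp3a13, at 4.69 and 72.3 CPM from 18 and 69 UMIs, a log2 ratio of -3.89 (-4.78 to -3.18). No wild-type cell held more than 8 of these UMIs, and Cyp3a13 was at 68.6 and 90.6 CPM in horizontal basal cell-like and 68.0 and 85.2 CPM in Reg3g-led cells of the 2 libraries. The largest ratios in the other direction were those of Ugt2a1, 0.70 (0.38 to 1.05), and Gsta4, 0.67 (0.55 to 0.80). Ugt2a2 had -0.97 (-1.53 to -0.35), of the opposite sign to Ugt2a1, with which it shares its end. In endothelial-like cells 5 of 18 members were higher past 2-fold (1.40% of 4936 features), namely Cbr2, Cyp2f2, Gstm1, Gsta4 and Gstm2, all of which are abundant in sustentacular-like or horizontal basal cell-like cells. The sustentacular marker Sec14l3 was at 110 and 8.04 CPM in the endothelial-like cells of the 2 libraries, and its part in these ratios was not tested. Elsewhere 2 of 8 members were higher past 2-fold in immature OSN-like cells (1.66% of 7001 features), Cyp2g1 and Cyp2a5, 2 of 20 in horizontal basal cell-like cells (1.63% of 4105), Sult1d1 and Aldh3a1, and 0 of 11 in fibroblast-like cells (2.14% of 3464). None was lower in these 3 classes or in endothelial-like cells (0.957%, 1.12%, 1.44% and 1.82%).

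Free RNA held the enzymes at a share of the order found in cells. Barcodes with 1 to 99 UMIs carried 12456 and 8759 enzyme UMIs, or 0.581% (0.571 to 0.591%) and 0.380% (0.372 to 0.388%) of all their UMIs. Because 37.4% and 51.3% of free RNA was mitochondrial against 5.74% and 5.30% in kept cells, the members were also compared per non-mitochondrial UMI. On that scale free RNA held 0.928% and 0.778% and kept cells 0.911% and 0.513%, a log2 ratio of 0.03 (0.00 to 0.05) and 0.60 (0.57 to 0.63). Per all UMIs the ratios were -0.56 and -0.36, and with cells of up to 20% mitochondrial UMIs admitted they were -0.35 and -0.29, so the direction turned with the scale and with the cells admitted. Sustentacular-like cells were 5.04% of kept transgenic and 1.97% of kept wild-type cells.

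Of 30 members with at least 20 free UMIs in each library, 2 were past 2-fold higher in free RNA in both (0.999% of 7209 features). They were Aldh1l1, with log2 ratios of 1.86 and 1.35, and Sult1c1, with 1.15 and 1.51. Aldh1l1 was highest among named classes in ionocyte-type microvillar-like cells, of which 45 and 12 were kept. At the 20% mitochondrial limit a class of that name held 196 and 68 cells, 166 and 60 of them over 10%. The part of these missing cells in the ratio was not tested. No member was past 2-fold lower in both (0.610%). Members with lower ratios included Sult1d1, at -0.81 in each library, and Fmo2, at -1.05 and -0.41. The median over the 30 members was 0.11 and 0.67, against -0.15 and -0.18 for all features. With the higher mitochondrial limit the ratios of Sult1c1 were negative, at -0.15 and -0.37.

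How much of an enzyme's level in a class stands at the height of free RNA was described for the 8 members that are highest in sustentacular-like cells and have at least 100 free UMIs: Cyp2a5, Cyp2g1, Gstm1, Cbr2, Aldh2, Cyp2f2, Gsta4 and Cyp1a2. In mature OSN-like cells their levels were 0.0178 to 0.0238 of the free RNA level in the transgenic library (median 0.02) and 0.0101 to 0.0234 in the wild type (median 0.0182). The ratios of the 8 enzymes lay close together, although their free RNA levels ran from 187 per 1000000 non-mitochondrial UMIs for Cyp1a2 to 2113 for Cyp2a5 in the transgenic library. Sult1d1 was at 3.67 and 4.55 and Cbr1 at 0.976 and 1.25 of free RNA in the same cells.

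The ratios were more spread in other classes. In endothelial-like cells the 8 enzymes ran from 0.0370 to 0.621 and from 0.0331 to 0.384, and in fibroblast-like cells from 0.0228 to 0.724 and from 0.0085 to 0.673. In neutrophil-like cells Aldh2 was at 1.10 and 0.984 of free RNA, against medians over the 8 of 0.0164 and 0.0118. By cells, a UMI of Cyp2a5 was seen in 40.4% and 18.4% of mature OSN-like cells (medians of 13804 and 12430 UMIs) and in 18.2% and 8.62% after thinning to 5000 UMIs. In wild-type neutrophil-like cells (79 cells, median of 12259 UMIs), which should lack it, the shares for Cyp2a5 were 20.3% and 7.60%, and in the 8 transgenic ones 37.5% and 12.5%. The part of free RNA in the OSN shares was not tested.

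**Figure D4:**
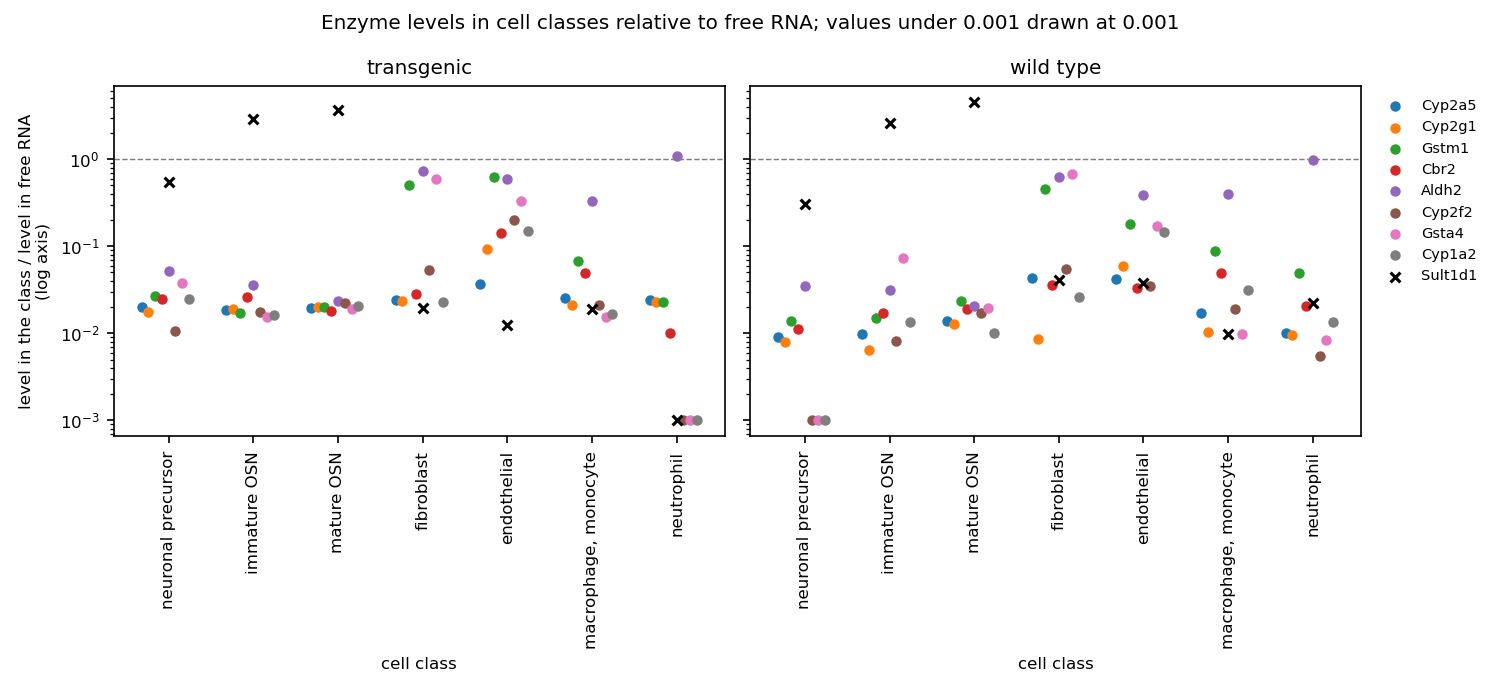
Level of 8 enzymes that are highest in sustentacular-like cells (dots) and of Sult1d1 (crosses) in 7 cell classes, divided by the level in free RNA (both per 1000000 non-mitochondrial UMIs, log axis, values under 0.001 drawn at 0.001), in each library. In mature OSN-like cells the dots lie together between 0.0101 and 0.0238 and Sult1d1 lies at 3.67 and 4.55, while in fibroblast-like and endothelial-like cells the dots spread widely.

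Barcodes that were not kept as cells held much of the enzyme RNA. Those above the UMI minimum but with over 10% mitochondrial UMIs (746 and 523) had enzyme shares of 1.77% and 2.06%, above the 0.859% and 0.486% of kept cells. They gave 31.8% and 44.5% of all enzyme UMIs from 15.7% and 12.9% of all UMIs, while kept cells gave 43.5% and 28.0%. Barcodes with 100 to under 1000 UMIs had 0.604% and 0.324%.

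With the mitochondrial limit at 20% and a new clustering, the sustentacular-like class held 138 and 66 cells at 4.42% and 3.998%. Among them 53 and 45 were added by the higher limit, and some of the earlier 88 and 22 cells were no longer in the class. Of the enzyme UMIs of the added cells, 45.9% and 46.5% were in sustentacular-like cells and 28.4% and 31.5% in a cluster led by Dcpp3 and Msln. Most ionocyte-type microvillar-like cells there (166 of 196 and 60 of 68) were over the 10% limit, and the class stood at 0.442% and 0.359%. The 5 and 10 Bowman's gland-like cells over the 10% limit had enzyme shares of 5.05% and 4.30%, and the class then stood at 1.10% and 2.05% in 26 and 19 cells, against 0.439% and 0.494% before. The share of Bowman's gland-like cells thus came from few cells and changed with this limit and the new clustering. At the 10% limit its mean over cells was 0.547% and 0.273%. Sustentacular-like cells over the 10% limit had 5.13% and 4.52%, and whether the added gland-like cells are gland cells was not tested.

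**Figure D5:**
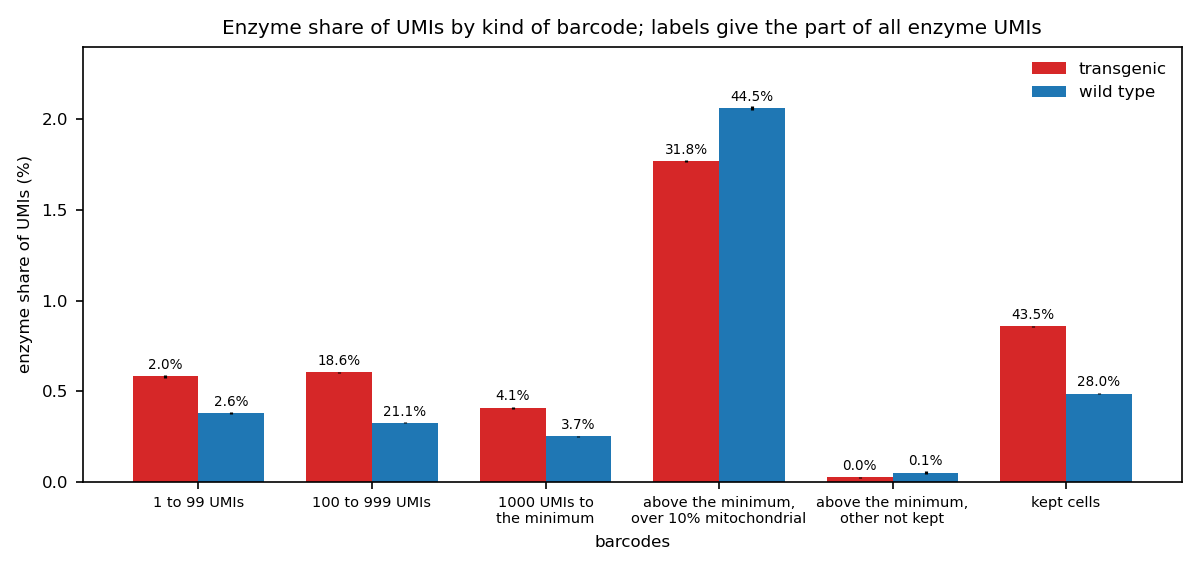
Enzyme share of UMIs (percent) in barcodes grouped by UMI count and mitochondrial share, for the transgenic and the wild-type library. Barcodes above the minimum with over 10% mitochondrial UMIs stand highest, at 1.77% and 2.06%, and kept cells lie at 0.859% and 0.486%.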

How the data were processed

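The deposited files hold UMI counts per gene and barcode, not filtered to cells, for 1 transgenic and 1 wild-type library. Per the submitters' processing notes the authors used Cell Ranger 6.1.1 with GRCm39 (mm39); the matrix header names Cell Ranger 4. Cell calling, clustering and naming were done anew. Barcodes were kept with UMIs at or above 10% of the 99th percentile of the top 5000 barcodes, 500 or more genes and no more than 10% of UMIs mitochondrial, and Scrublet calls were removed. Scanpy 1.11.5 was run with 2000 variable genes, 30 components, 15 neighbours and Leiden resolution 1, leaving out the enzymes, odorant and pheromone receptors, mitochondrial, ribosomal and immunoglobulin genes, Xist, Tsix and the transgene. A cluster was named where the mean log2 excess of its markers was at least 1 (5 CPM added) with 3 markers at 2-fold.

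Levels are summed UMIs per 1000000 UMIs of a class (CPM), with exact Poisson or binomial 95% intervals (SciPy 1.17.1), which cover counting error only. The script for ratios was tested on simulated data. Free RNA was taken as barcodes under 100 UMIs. Ratios used sums with 1 UMI added, and class calls needed 20 CPM and 50 UMIs.

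The members and lists were chosen with earlier results of these data known. Named genes are the 15 highest members, up to 3 leading members of each class, the 5 highest and 5 lowest free RNA ratios, the 5 largest ratios between libraries in each direction, and up to 3 genes of each other list; others were named after their values had been seen. The planned pairs by protein identity were replaced by shared 30-base windows. The motif TATAAA, the rule that 3 leading genes of another class leave a cluster unnamed, and the count with unnamed clusters were chosen after seeing the data. Of the members, 150 matched the RefSeq table. One enzyme that the rule names is not reported here by name; it stays in the counts and summed shares.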

Additional observations from a re-analysis of the deposited data

Results flagged for a closer look

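Gstm1 had a log2 ratio of free RNA over kept cells of -0.59 (transgenic) and 0.49 (wild type), of opposite sign. Cyp2f2 had -0.38 and 0.32. Cyp2g1 had a log2 ratio of the Dcpp1-led cluster over sustentacular-like cells of 0.17 (transgenic) and -0.30 (wild type). These 3 differences between the libraries were not tested, since each group is 1 library.

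Barcodes outside the kept cells held enzyme RNA. Those with 100 to under 1000 UMIs had enzyme shares of 0.604% and 0.324%, and those above the UMI minimum with over 10% mitochondrial UMIs had 1.77% and 2.06%.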

How the results depend on the processing

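No paired analysis was possible because each group is 1 library. The number of members highest in sustentacular-like cells ran from 17 to 26 around the main 21. With a minimum of 2000 UMIs the enzyme share was 0.840% and 0.474% in kept cells and 4.11% and 3.28% in sustentacular-like cells, and the log2 ratio of free RNA over kept cells was 0.058 and 0.64. With a mitochondrial limit of 20% these were 1.09% and 0.881%, 4.42% and 3.998%, and -0.35 and -0.29, of reversed sign. With the top 5% of doublet scores removed they were 0.804% and 0.442%, 4.39% and 3.13%, and 0.12 and 0.74. As means over cells they were 0.519% and 0.323%, 4.25% and 3.28%, and 0.73 and 1.16. With the other denominator (non-mitochondrial UMIs for shares, all UMIs for the ratio) they were 0.911% and 0.513%, 4.41% and 3.51%, and -0.56 and -0.36, again reversed, with 0.928% and 0.778% in free RNA. At resolution 2 the sustentacular-like share was 4.13% and 3.27%, and free RNA under 50 UMIs held 0.563% and 0.361%. The count of members past 2-fold between libraries in mature OSN-like cells, 1, became 2 with the 20% limit and 2 without the top doublet scores, and 20 with no filter on low values. The causes were not tested.

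Single members' values were counted once for each setting. Of these counts, 706 moved by less than 0.5 on the log2 scale, 117 by more, and 15 called values changed sign. Ratios of free RNA over kept cells do not use the clusters, so they could not move with the clustering settings. The 706 is therefore no measure of stability. With the 20% limit the wild-type ratio of free RNA over kept cells was -0.38 for Cyp2a5, -0.32 for Cyp2g1, -0.021 for Gstm5 and -0.33 for Ugt2a1, and for Sult1c1 it was -0.15 (transgenic) and -0.37 (wild type). The ratio between libraries in sustentacular-like cells was then -0.10 for Cyp2f2, -0.068 for Fmo2, -0.078 for Gstm1, -0.21 for Sult1b1 and 0.033 for Sult1d1, and 0.025 for Sult1d1 in mature OSN-like cells. Without the top doublet scores it was -0.51 for Aldh1a1 and 2.07 for Sult1c1. As a mean over cells the transgenic free RNA ratio of Cyp4b1 was 0.018.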
